A study of Mus musculus with 7 samples.

Results

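The forkhead (Fox) genes encode transcription factors, and the set described here holds every protein-coding gene whose symbol is Fox followed by a subfamily letter from a to s and a number, apart from Foxa2 and Foxj1, which were left out. The rule used symbols alone and no measured value, and it found 42 of the 53379 gene IDs in the count tables. Of these, 17 had enough reads to be tested and 25 did not. Expression was measured by RNA-seq in endometrial epithelial cells that were selected with magnetic beads against EpCAM, a surface protein of epithelial cells, from enzymatically dissociated mouse uteri. The mutants were 4 libraries from separate CD-1 mice of genotype LtfCre 0/+; Brg1 fl/fl, each 120 days old, in which Cre is expressed from the lactoferrin gene (Ltf) and removes floxed Brg1, which encodes an ATPase that lets SWI/SNF complexes move nucleosomes and has the gene symbol Smarca4. The controls were 3 libraries labelled wild-type, also CD-1, with no Cre or floxed allele named. They were made from pooled mice of unstated age and re-used from an earlier series, with a first flow cell named for them alone, so genotype, library set, pooling and possibly age cannot be told apart.

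All forkhead proteins bind DNA through a winged-helix domain, and many recognise variants of a short TGTTTAC-like element. FOXO proteins are held outside the nucleus when insulin signalling through AKT is active and otherwise switch on genes of cell cycle arrest, stress resistance and metabolism. FOXM1 acts with the MuvB complex on genes of mitosis, FOXP and FOXK proteins largely repress transcription, and FOXA proteins open compacted chromatin in glands and other endoderm- and duct-derived epithelia.

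Gene reads, the depth of a library, numbered 12436971 to 13364080 in mutants and 21372036 to 25862245 in controls. Smarca4 stood at 56.6 to 105.1 CPM (counts per 1000000 gene reads, scaled with TMM factors) in mutants and 245 to 279 in controls, with a log2 fold change of -1.64 ± 0.23 (SE) and an edgeR adjusted p of 0.00967. The epithelial marker sum was 7608 to 11101 CPM in mutants and 15547 to 18954 in controls. Of its 8 genes, 2 fell, Cdh1 (-0.91 ± 0.20, edgeR adjusted p = 0.0307) and Krt8 (-1.02 ± 0.25, adjusted p = 0.0421), where 6.18% of all genes tested fell. Of the markers of other cells, the stromal gene Dcn fell (-1.77 ± 0.24, adjusted p = 0.00888) and the endothelial gene Flt1 rose (2.32 ± 0.59, adjusted p = 0.0461). The other tested blood endothelial markers did not pass, and all had fold changes below 0, from -1.01 (Vwf) to -0.22 (Tek). Flt1 stood at 6.09, 28.6, 37.3 and 36.2 CPM in mutants and 4.65 to 5.84 in controls, and it is part of the endothelial sum below. Sums over markers of other cells were 170 to 492 against 557 to 707 CPM for 12 stromal genes, 775 to 3418 against 1465 to 1840 for 8 myeloid genes, 1.99 to 6.09 against 14.7 to 25.3 for 11 T cell genes and 1.64 to 9.50 against 16.3 to 23.4 for 5 B cell genes. They were 9.80 to 90.4 against 74.3 to 112.3 for 9 smooth muscle genes, 34.0 to 71.5 against 34.3 to 40.6 for 9 blood endothelial genes, 25.0 to 80.6 against 26.0 to 53.9 for 6 lymphatic genes and 8.97 to 37.3 against 40.1 to 55.2 for 4 mesothelial genes. No marker was at 0 in every library, and the part of these cells in the values below was not tested. In such bulk samples, fewer cells that express a gene and less RNA per cell cannot be told apart.

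Of the 17 tested forkhead genes, 1 passed the threshold, Foxn1, and it was lower in mutants. Across all 14610 genes tested 11.5% passed, 6.18% lower and 5.37% higher (903 and 784 genes, against 704 and 1178 with upper-quartile scaling and 532 and 2202 with total count scaling). The fold change was below 0 for 13 of the 17 and above 0 for 4, with a median of -0.48 on the log2 scale beside 0.06 over all genes. The 13 include Foxn1 and Foxo6, which passed the filter on low counts (0.748 CPM in 3 libraries) through the controls. The filter itself thus favoured their place among the lower genes, here and under the other scalings. With upper-quartile scaling 12 of the 17 were below 0, with a median of -0.34 beside 0.20 over all genes. With total count scaling 9 were below 0, with a median of -0.13 beside 0.41 over all genes. The groups did not overlap for 4 genes, Foxn1, Foxo1, Foxj3 and Foxp4, all lower in mutants, where 31.4% of all genes did not overlap, with 16.1% of all genes lower and 15.4% higher. The same 4 genes had an unadjusted p under 0.05, as did 31.0% of all genes. DESeq2 called these 4 lower and none higher, with 23.6% of all genes called (11.3% lower, 12.4% higher), and limma-voom with quality weights called 7 lower, with 35.7% of all genes called (18.9% lower, 16.8% higher). Of the 42 genes, 21 had an adjusted p in the authors' deposited table, and the same 4 were lower and none higher at the 0.05 threshold, where 17.2% of all genes in the authors' deposited table passed (8.34% lower, 8.85% higher).

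**Figure D1:**
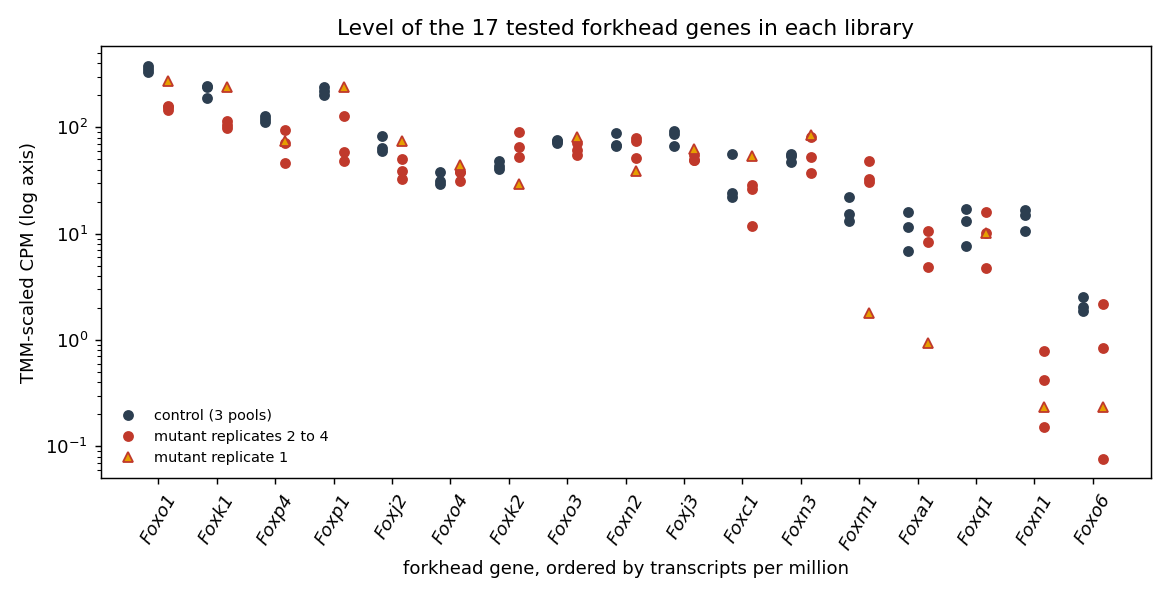
TMM-scaled CPM (vertical log axis) of the 17 tested forkhead genes in each of the 7 libraries, with 3 control pools in blue, mutant replicates 2 to 4 as red circles and mutant replicate 1 as a triangle, and genes ordered from left to right by level per length. The groups are apart for Foxo1, Foxp4, Foxj3 and Foxn1, the last of these between 0.153 and 0.790 CPM in mutants and 10.7 and 16.8 in controls.

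Foxn1, best known for the development of thymic epithelium and of the hair follicle (its loss gives the nude mouse), was far lower in mutants than in controls. Its reads numbered 3, 2, 6 and 13 in mutant replicates 1 to 4, or 0.234, 0.153, 0.419 and 0.790 CPM. The controls had 320, 202 and 329 reads, or 16.8, 10.7 and 14.9 CPM. Every mutant lay far under every control, and mutant replicates 1 and 2 were at or under the 3-read floor of their depth (0.234 and 0.230 CPM). Foxn1 fell by 5.09 ± 0.54 (SE) on the log2 scale, a fitted change of 34.0-fold, with an edgeR adjusted p of 0.00509. It was called in all 16 alternatives without a replicate block, from -5.66 to -4.70, with adjusted p from 1.691e-19 to 0.0358. Foxn1 passed the filter on low counts, 0.748 CPM in 3 libraries, through the controls, and so did Foxo6. Per length, Foxn1 stood at 11.9 ± 3.39 TPM (SD, n = 3) in controls, close to Foxn3 at 12.2 ± 1.86 and Foxa1 at 9.25 ± 3.65, and at 0.507 ± 0.401 TPM (n = 4) in mutants, the lowest of the 17.

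Among the 11 T cell markers, 5 were tested and none passed with edgeR. Cd3e, chosen after its values were seen, had 0, 0.306, 2.52 and 0.182 CPM in mutants and 18.4, 11.6 and 7.08 in controls (log2 fold change -4.02 ± 1.14, adjusted p = 0.0617). Of the other tested T cell markers, Il2ra (-2.47 ± 0.79, adjusted p = 0.0831), Trbc1 (-1.96 ± 1.15, adjusted p = 0.286) and Ctla4 (-0.77 ± 0.73, adjusted p = 0.510) also had fold changes below 0. Cd4 did not, at 0.536 to 1.87 CPM in mutants and 0.590 to 1.53 in controls (0.12 ± 0.54, adjusted p = 0.905). The untested Cd3d, Cd3g, Cd8a and Trac were at most 0.316 CPM in any library. Cd2, also untested, was at most 0.499 CPM (control replicate 3). The untested Trbc2 was highest in a mutant, at 0.624 CPM in mutant replicate 1, beside 0 in the other mutants and 0.182 to 0.421 in controls. The part of T cells in the Foxn1 value was not tested. Of 8 other tested genes within 100 kb of Foxn1, 0 passed the threshold with edgeR, 2 had an unadjusted p under 0.05, and DESeq2 and limma-voom each called 1 higher and 1 lower. Over all genes, 31.0% had an unadjusted p under 0.05, 31.4% had groups without overlap, and DESeq2 called 23.6% and limma-voom 35.7%. The nearest of the 8, Unc119, a lipid-binding transport protein at 8.41 kb, had a log2 fold change of 0.33 ± 0.35 (adjusted p = 0.560). Slc13a2, a citrate transporter at 10.5 kb, had 1.95, 0.766, 0.769 and 0.973 CPM in mutants and 2.16, 4.54 and 2.77 in controls, without overlap (-1.50 ± 0.48, adjusted p = 0.0838). Aldoc, a glycolytic aldolase at 29.8 kb, lay higher in every mutant than in any control, at 13.9 to 25.7 against 7.82 to 12.1 CPM (0.99 ± 0.28, adjusted p = 0.0634).

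The 4 genes whose groups did not overlap are given here with the 250 bases before their RefSeq start (build GRCm38.p6, 5′ to 3′ on the gene's strand). They were chosen by that lack of overlap, which 31.4% of all genes showed, and whether they change together was not tested. Bases that GENCODE M21 places in an exon are left off, which leaves 250 bases for Foxn1, 249 for Foxo1, 237 for Foxp4 and 131 for Foxj3. Capitals mark each CpG, the dinucleotide at which mammalian DNA is methylated.
Foxn1 (chr11:78386609-78386858, minus strand): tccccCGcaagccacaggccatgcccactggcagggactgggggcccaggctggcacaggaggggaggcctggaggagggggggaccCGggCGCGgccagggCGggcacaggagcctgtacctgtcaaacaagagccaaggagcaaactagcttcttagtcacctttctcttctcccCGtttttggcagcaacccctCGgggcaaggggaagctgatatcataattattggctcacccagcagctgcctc
Foxo1 (chr3:52268087-52268335, plus strand): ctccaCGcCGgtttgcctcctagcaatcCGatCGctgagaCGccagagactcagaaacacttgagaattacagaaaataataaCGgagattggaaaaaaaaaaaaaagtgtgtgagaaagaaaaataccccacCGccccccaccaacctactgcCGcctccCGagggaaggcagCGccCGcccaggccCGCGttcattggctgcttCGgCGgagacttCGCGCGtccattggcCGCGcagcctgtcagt
Foxj3 (chr4:119539530-119539660, plus strand): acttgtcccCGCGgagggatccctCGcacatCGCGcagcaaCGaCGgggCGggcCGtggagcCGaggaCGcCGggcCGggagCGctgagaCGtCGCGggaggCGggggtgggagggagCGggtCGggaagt
Foxp4 (chr17:47924646-47924882, minus strand): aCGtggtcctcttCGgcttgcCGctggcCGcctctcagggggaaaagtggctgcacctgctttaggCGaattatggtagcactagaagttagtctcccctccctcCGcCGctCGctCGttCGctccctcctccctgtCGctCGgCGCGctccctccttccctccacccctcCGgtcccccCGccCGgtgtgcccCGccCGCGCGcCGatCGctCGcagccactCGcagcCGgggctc

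The Foxn1 window held fewer CpG than the other three, and it was the only window of a tested gene whose bases after the RefSeq start were not found in a GENCODE transcript of the gene. It held 7 CpG, near the median of 6 over 32851 windows of the same length, and 53.7% of windows held fewer. The Foxo1 window held 20 and 82.1% of windows held fewer, the Foxp4 window held 27 (91.4%) and the Foxj3 window 34 (96.5%). GENCODE places the start of the Foxj3 gene at chr4:119537004, upstream of the Foxj3 window. By that annotation the window lies inside the gene and precedes a later start, so its CpG count need not be that of the first promoter. RefSeq windows matched 27 of the 42 genes, and 11 of the 13 windows of tested genes lay above the median. On either strand, the forkhead letters TGTTTAC were in none of the 4 windows and in 3.17% of all windows. The AP-1 letters TGANTCA were in none of the 4 and in 6.75% of all. Likewise in none of the 4 were TTTGAA, the core of the cell cycle homology region (16.0% of all windows), and the TATA box letters TATAAA (12.4%). Among the 30 windows of all matched forkhead genes, TGTTTAC occurred in 1 (Foxa1) and TTTGAA in 3 (Foxn3, Foxp1 and Foxp3). These are matches of letters and show no binding. The Foxj3 bases shown begin beside an exon of Frg2f1, a gene on the other strand, which stood at 1.19 to 2.49 CPM in mutants and 1.50 to 2.05 in controls (log2 fold change 0.16 ± 0.37, adjusted p = 0.813).

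None of the 4 FOXO genes passed the edgeR threshold, and the groups did not overlap for Foxo1 alone. Foxo1, which in the endometrium is known for decidualisation and implantation, had the highest level per length of all forkhead genes here, at 110.2 ± 15.6 TPM (SD, n = 3) in controls and 81.6 ± 22.9 (n = 4) in mutants. In CPM the mutants stood at 273, 159, 146 and 155 and the controls at 380, 332 and 354. All mutants were lower than all controls, with mutant replicate 1 nearest to the controls. The log2 fold change was -0.96 ± 0.25 and its edgeR adjusted p of 0.0511 missed the threshold. With DESeq2's size factors in the same test it was 0.0490, with DESeq2's own test 0.00746, and the authors' deposited table gave -0.94 with an adjusted p of 0.0282.

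Foxo3, the stress-responsive relative of Foxo1, had 80.2, 55.4, 61.6 and 71.1 CPM in mutants and 73.7, 76.3 and 70.9 in controls, and the groups overlapped (-0.13 ± 0.18, adjusted p = 0.644). Foxo4 had 43.9, 38.3, 31.2 and 37.9 CPM in mutants and 31.0, 38.3 and 29.3 in controls, also with overlap (0.20 ± 0.19, adjusted p = 0.504). Foxo6, the FOXO gene best known from brain, was near its floor in mutant replicates 1 and 2, with 3, 1, 12 and 36 reads in mutants and 39, 48 and 41 in controls (-1.33 ± 0.87, adjusted p = 0.339). Whether Foxo1 differed from the other FOXO genes was not tested.

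Of 28 genes taken as FOXO targets, 25 were tested, 2 rose and 2 fell, where 11.5% of all genes passed, and their median was -0.72 beside 0.06 over all genes. Cdkn1b, which encodes the cell cycle inhibitor p27, had 61.6, 55.1, 60.8 and 54.0 CPM in mutants and 30.3, 36.3 and 35.7 in controls, a rise of 0.76 ± 0.16 (log2, SE, adjusted p = 0.0278). Tnfsf10, which encodes the death ligand TRAIL, had 46.7, 73.8, 47.8 and 77.4 CPM in mutants and 36.6, 28.8 and 27.5 in controls, a rise of 0.99 ± 0.26 (adjusted p = 0.0484). Gadd45b, a stress-response gene, had 58.3, 126.1, 74.6 and 104.0 CPM in mutants and 211, 193 and 206 in controls, a log2 change of -1.16 ± 0.27 (adjusted p = 0.0369). Tob1, an antiproliferative regulator, had 66.3, 89.0, 88.1 and 45.3 CPM against 196, 139 and 141, with -1.14 ± 0.27 (adjusted p = 0.0403). All 4 called genes had groups that did not overlap, as had 7 lower and 2 higher of the 25 in all, beside 31.4% of all genes. Txnip, an inhibitor of thioredoxin, had the largest difference of the list without passing, at 213, 61.3, 31.8 and 118 CPM against 362, 469 and 458 (-2.02 ± 0.58, adjusted p = 0.0623). It was chosen after its values were seen. TGTTTAC was in 4 of the 30 windows of this list (13.3%), those of Bbc3, Bcl2l11, Trim63 and Txnip, beside 3.17% of all windows.

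The kinases and other proteins that act on FOXO factors were 30 tested genes, of which 1 rose and 4 fell, with a median of -0.11, where 5.37% of all genes rose and 6.18% fell. Sgk1, a kinase that phosphorylates FOXO proteins alongside AKT, had 135.7, 122.1, 169.1 and 166.3 CPM in mutants and 519.7, 398.1 and 391.4 in controls, a log2 change of -1.56 ± 0.20 (adjusted p = 0.0082). Crebbp, an acetyltransferase, stood at 96.8 to 120.3 CPM in mutants and 178 to 210 in controls (-0.80 ± 0.16, adjusted p = 0.0243). Pdpk1, the kinase that activates both AKT and SGK1, stood at 60.3 to 87.6 against 105 to 122 CPM (-0.72 ± 0.18, adjusted p = 0.0451). Akt1 stood at 152 to 211 against 264 to 317 CPM (-0.70 ± 0.17, adjusted p = 0.0422), and Akt2 did not pass (adjusted p = 0.218). Ywhaq, a 14-3-3 protein of the kind that binds phosphorylated FOXO, was the gene that rose, at 109 to 157 against 61.1 to 68.4 CPM (1.06 ± 0.18, adjusted p = 0.0165). All 5 called genes had groups without overlap, as had 31.4% of all genes.

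**Figure D2:**
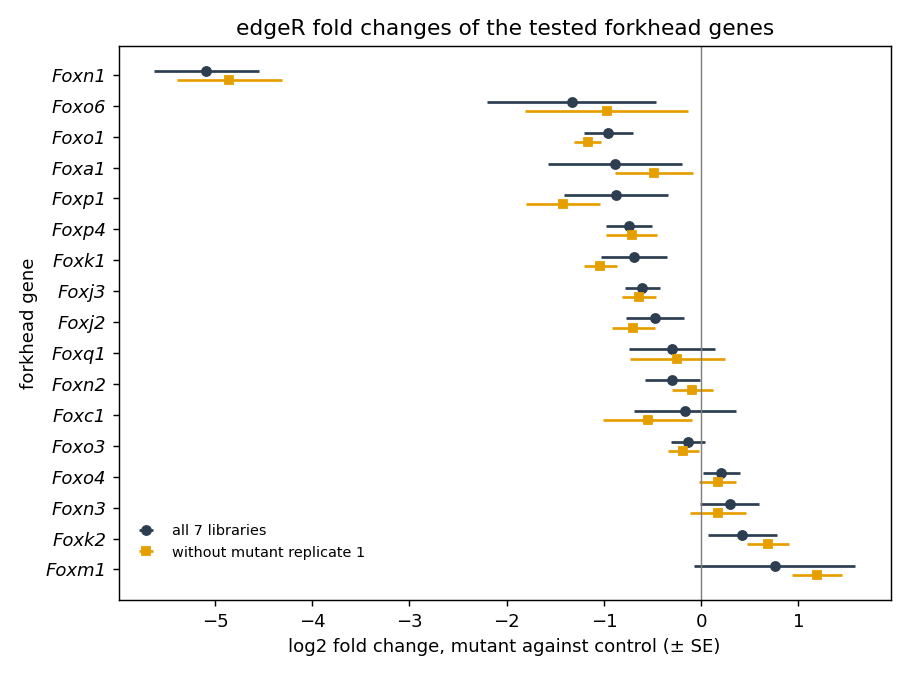
edgeR log2 fold changes, mutant against control, of the 17 tested forkhead genes with bars of 1 standard error, from all 7 libraries (circles) and without mutant replicate 1 (squares). Foxn1 lies near -5 under both, Foxk1 moves from -0.69 to -1.04 and Foxp1 from -0.88 to -1.42 when that library is left out, and Foxm1 moves from 0.76 to 1.19 with a much shorter bar.

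Foxm1, the forkhead factor of dividing cells, split the mutants. It stood at 1.79, 30.8, 47.7 and 32.9 CPM in mutant replicates 1 to 4 and at 15.2, 13.2 and 21.9 in controls. Mutant replicate 1 was below every control, and the other 3 mutants were above every control. Over all libraries the log2 fold change was 0.76 ± 0.83 (adjusted p = 0.571). Leaving out mutant replicate 1, the only mutant below the controls, had to raise it, to 1.19 ± 0.26 (edgeR adjusted p = 0.0171), where 29.5% of all genes passed. With any other single library left out, the edgeR adjusted p of Foxm1 was 0.60 to 0.81. Mki67, the proliferation marker, had the same split, with 12.3, 268, 368 and 193 CPM in mutants and 72.5, 91.7 and 128 in controls.

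Of the 24 FOXM1 and mitotic target genes, 0 passed the threshold over all libraries with edgeR, 3 had an unadjusted p under 0.05, DESeq2 called 3 and limma-voom 11, all of them higher. Over all genes, 31.0% had an unadjusted p under 0.05 in either direction, DESeq2 called 12.4% higher and limma-voom 16.8% higher. Without mutant replicate 1, edgeR called 22 of 24 higher and 0 lower. Their median was 1.41 over all libraries, and their mean distance from the control mean on a log2 scale was -2.06, 1.71, 2.26 and 1.38 in mutant replicates 1 to 4. Top2a, a DNA topoisomerase and the most abundant of them, was the only gene of the list whose groups did not overlap, at 269.6, 281, 405 and 247 CPM in mutants and 115, 141 and 212 in controls (0.95 ± 0.28, adjusted p = 0.0691). The other 23 were all below the control mean in mutant replicate 1, Plk1 for example at 0.624, 41.0, 71.4 and 29.5 CPM in mutants against 4.48, 9.51 and 11.1 in controls. Plk1 is the kinase that drives entry into mitosis, and Ccnb1, the cyclin of the same step, had 1.33, 27.6, 53.4 and 17.5 CPM against 3.63, 6.39 and 8.44. Without mutant replicate 1, 29.5% of all genes passed, 14% lower and 15.5% higher. Of the 10 MuvB and B-Myb partners, Rbbp4, a histone-binding protein, rose by 0.78 ± 0.19 (162 to 225 CPM against 100 to 130, adjusted p = 0.0418) and 0 fell, where 11.5% of all genes passed.

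**Figure D3:**
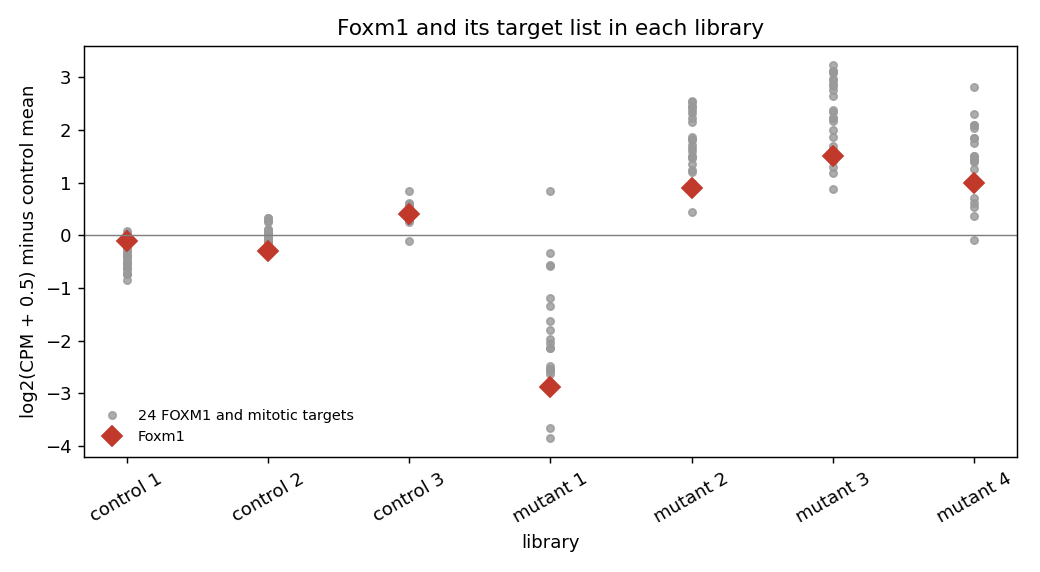
log2(CPM + 0.5) minus the mean of the 3 controls in each library for Foxm1 (diamonds) and its 24 target genes (grey points). Foxm1 lies 2.88 below the control mean in mutant replicate 1 and 0.89, 1.51 and 0.99 above it in mutant replicates 2 to 4, and the grey points lie to the same side in these libraries apart from a few.

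FOXM1 reaches many mitotic promoters through MuvB at the cell cycle homology region, whose core letters are TTTGAA. Of the 24 genes, 18 matched a RefSeq window, and 8 of their 19 windows (42.1%) held TTTGAA on either strand beside 16.0% of all windows, which is a count of letters and not of bound sites. The matches whose first letter lay within 30 bases of the start are shown in capitals with up to 12 bases on each side (GRCm38.p6, 5′ to 3′ on the gene's strand, where TTCAAA is the same element read on the other strand).
Cdc20 (chr4:118437344-118437373, minus strand): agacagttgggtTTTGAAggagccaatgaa
Cdk1 (chr10:69352913-69352939, minus strand): taccgcggcgagTTTGAAactgctggc
Cks1b (chr3:89418292-89418320, minus strand): gcgggcggtgtgTTTGAAagcgaggccaa
Top2a (chr11:99024195-99024224, minus strand): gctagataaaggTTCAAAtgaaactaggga
Ube2c (chr2:164769888-164769917, plus strand): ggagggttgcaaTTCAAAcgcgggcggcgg
Bases in GENCODE exons were kept here, and they number 29 for Cks1b, 26 for Cdk1, 20 for Ube2c, 9 for Cdc20 and 0 for Top2a. The 5 genes are an activator of the anaphase-promoting complex (Cdc20), the mitotic cyclin-dependent kinase (Cdk1), its small subunit (Cks1b), Top2a and a ubiquitin-conjugating enzyme of mitotic exit (Ube2c). Cdc20 stood at 2.26, 53.2, 89.9 and 51.8 CPM in mutants and 14.9, 17.3 and 26.2 in controls. Cdk1 stood at 3.43, 55.4, 79.6 and 45.0 CPM against 13.5, 18.6 and 38.9. In both, mutant replicate 1 was the lowest library and the other 3 mutants the highest.

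Foxk1, Foxp4 and Foxp1 had the next highest levels per length after Foxo1, by the mean of both groups. Foxk1, a repressor of autophagy and metabolic genes, stood at 79.4 ± 14.7 TPM in controls and 70.7 ± 30.4 in mutants, and Foxp4 at 65.1 ± 8.63 and 57.3 ± 19.8, so that these neighbours in the order did not differ beyond their spread. Foxk1 had 238, 98.3, 105 and 114 CPM in mutants and 241, 245 and 187 in controls, with mutant replicate 1 inside the control range and the others well below it (-0.69 ± 0.34, adjusted p = 0.210). Without mutant replicate 1 its change was -1.04 ± 0.17 (edgeR adjusted p = 0.00817), where 29.5% of all genes passed. Leaving out that library, the mutant nearest to the controls, had to enlarge the difference. With any other single library left out, the edgeR adjusted p of Foxk1 was 0.308 to 0.454. Its close relative Foxk2 went the other way in the same libraries, with 29.2, 65.3, 90.7 and 52.0 CPM in mutants and 40.3, 43.6 and 48.7 in controls (0.42 ± 0.35, adjusted p = 0.453). Mutant replicate 1 was the lowest library for Foxk2 and the other mutants were above all controls. Without that replicate the change was 0.69 ± 0.22 (edgeR adjusted p = 0.0521). With any other single library left out, the edgeR adjusted p of Foxk2 was 0.469 to 0.791.

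Foxp1, a factor of epithelial and lymphoid development, had 241, 48.2, 58.0 and 129 CPM in mutants and 238, 199.5 and 219 in controls. Mutant replicate 1 stood above all controls and the other mutants below all of them (-0.88 ± 0.53, adjusted p = 0.304). Leaving out that library had to enlarge the difference, to -1.42 ± 0.38 (edgeR adjusted p = 0.0313), where 29.5% of all genes passed. With any other single library left out, the edgeR adjusted p of Foxp1 was 0.390 to 0.521. Foxp4, its relative in lung and gut epithelium, had 73.7, 46.6, 71.4 and 93.5 CPM in mutants and 127, 119 and 113 in controls, without overlap (-0.74 ± 0.24, adjusted p = 0.0847). Mutant replicate 1 lay among the other mutants for Foxp4, unlike for Foxp1. Foxp2, known from brain and lung, had 3, 1, 1 and 4 reads in mutants and 7, 3 and 0 in controls. Foxp3, the factor of regulatory T cells, had 1 read in control replicate 1 and 0 elsewhere.

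Of 21 genes whose proteins act as corepressors or partners of FOXP and FOXK, 18 were tested, 1 rose and 1 fell, with a median of -0.001, a share of called genes near the 11.5% over all genes. Hdac1, a histone deacetylase, had 49.8, 68.2, 74.1 and 98.2 CPM in mutants and 40.5, 32.8 and 38.1 in controls (0.97 ± 0.25, adjusted p = 0.0481). Runx1, a transcription factor that binds FOXP3, had 112, 66.7, 62.8 and 83.1 CPM in mutants and 235, 231 and 175 in controls (-1.40 ± 0.24, adjusted p = 0.0182). Neither pair of groups overlapped. Hdac2 and Hdac3, which share complexes with Hdac1 or related ones, did not pass (adjusted p = 0.154 and 0.156).

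Among the remaining tested genes, Foxj3, a regulator of muscle and germ cells, had 62.3, 48.8, 55.1 and 49.5 CPM in mutants and 86.6, 92.2 and 67.3 in controls, all mutants below all controls (-0.60 ± 0.18, adjusted p = 0.0704). Foxj2 had 74.2, 32.6, 39.1 and 50.5 CPM against 82.0, 59.4 and 63.6, with mutant replicate 1 inside the control range (-0.48 ± 0.30, adjusted p = 0.321). Foxn2 had 38.8, 74.4, 80.0 and 51.0 CPM against 89.2, 68.8 and 67.2 (-0.30 ± 0.28, adjusted p = 0.508). Foxn3, which is linked to the DNA damage checkpoint, had 85.5, 52.6, 37.3 and 80.2 CPM against 56.0, 53.8 and 46.8 (0.29 ± 0.30, adjusted p = 0.547). The mutants lay below or within the control range for Foxn2, and on both sides of and within it for Foxn3. Foxc1, a mesenchymal and ductal developmental factor, varied in both groups, at 53.5, 11.9, 28.9 and 26.3 CPM in mutants and 55.5, 22.1 and 24.1 in controls (-0.17 ± 0.53, adjusted p = 0.858).

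Foxa1, a chromatin-opening factor of secretory epithelia, had 0.936, 4.90, 10.6 and 8.33 CPM in mutants and 11.5, 6.87 and 16.1 in controls. It was lowest in mutant replicate 1, where it had 12 reads (-0.89 ± 0.69, adjusted p = 0.422). Foxq1, which is known from stomach surface cells and hair, had 10.2, 4.75, 10.2 and 16.0 CPM against 17.2, 13.3 and 7.72 (-0.30 ± 0.44, adjusted p = 0.678). Across the 17 tested genes, mutant replicate 1 lay above the other mutants for 9, below them for 4 (Foxk2, Foxn2, Foxm1 and Foxa1) and among them for 4 (Foxp4, Foxq1, Foxn1 and Foxo6). Ltf, whose promoter drives the Cre, was also low in that library, with 82.5, 2019.9, 1143 and 1542 CPM in mutants and 2935 to 3681 in controls, and so were the mitotic genes above. Of the 6 lymphatic markers, Prox1 was high there, at 58.1 CPM beside 1.07 to 4.86 in the other mutants and 12.4 to 17.4 in controls. The other 5 lay within the range of the other mutants there, Lyve1 for example at 5.07 CPM beside 4.86 to 21.9. The part of these differences in the forkhead values was not tested.

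**Figure D4:**
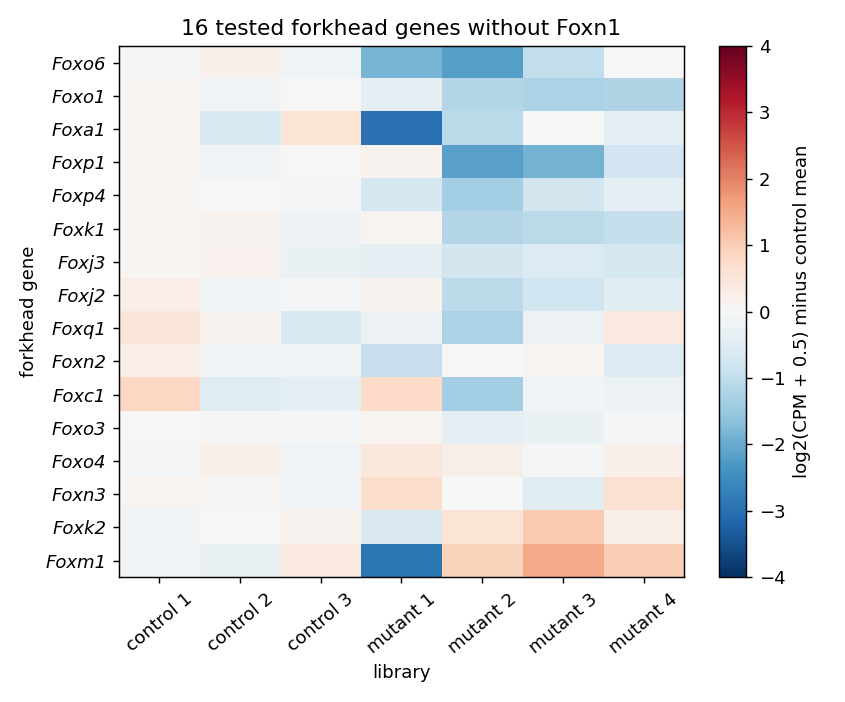
log2(CPM + 0.5) minus the mean of the 3 controls for 16 tested forkhead genes (rows, without Foxn1) in each library (columns), blue for lower and red for higher. The column of mutant replicate 1 is near white for Foxk1 (0.10), Foxp1 (0.14) and Foxj2 (0.13), where the other 3 mutants are blue, and dark blue for Foxa1 (-2.98) and Foxm1 (-2.88).

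The 25 untested genes had few reads. In 9 of them, such as Foxb1, Foxd3, Foxf2 and Foxl1, no library had a read, which allows up to 0.182 to 0.234 CPM in a mutant and 0.136 to 0.158 CPM in a control (3 reads, counting error only). A further 9 (Foxa3, Foxd1, Foxd2, Foxd4, Foxe1, Foxh1, Foxp3, Foxr2 and Foxs1) had at most 3 reads in any library. The 7 with more were Foxl2, Foxi3, Foxc2, Foxf1, Foxi1, Foxn4 and Foxp2, and the highest count was 20. Foxl2, a factor of ovarian granulosa cells and of uterine stroma, had 4, 8, 20 and 0 reads in mutants and 13, 12 and 9 in controls. Foxl2os, the RNA read from the same promoter on the other strand, was the only tested one of 4 antisense or divergent forkhead RNAs and followed the order of Foxl2 across the mutants, at 0.312, 0.842, 2.10 and 0 CPM against 1.32, 1.06 and 0.227 in controls (-0.09 ± 1.14, adjusted p = 0.966). Foxi1, a factor of ion-transporting cells, had 6, 2 and 0 reads in controls and 0 in all mutants, and Foxi3 had 1, 0, 2 and 8 reads in mutants and 0, 0 and 2 in controls. Foxc2, a factor of lymphatic vessels, had 1, 1, 0 and 1 reads against 8, 3 and 2. At these counts differences between groups were not detectable.

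The makeup of the forkhead RNA was compared per length. In controls, Foxo1, Foxk1 and Foxp4 led, followed by Foxp1 at 42.8 ± 6.81 TPM (SD, n = 3), Foxj2 at 34.5 ± 8.83, Foxn2 at 27.5 ± 6.71, Foxo3 at 26.0 ± 2.13, Foxo4 at 25.2 ± 3.30 and Foxk2 at 22.4 ± 1.31, where from Foxj2 on each differed from the next by less than their spread. In mutants the same 3 genes led, followed by Foxk2 at 44.4 ± 20.3 TPM (n = 4), Foxo4 at 42.2 ± 5.22, Foxj2 at 35.8 ± 12.7, Foxo3 at 34.6 ± 6.48 and Foxp1 at 33.6 ± 23.7, and none of these neighbours differed beyond their spread. The summed level of the 42 genes was 533 ± 99.2 TPM (SD, n = 4) in mutants, at 617, 396, 526 and 593, and 521 ± 80.9 (n = 3) in controls, at 614, 479 and 469.8. These overlapped. The comparison depends on the scale, because TPM are shares of each library: as TMM-scaled CPM per kilobase, the sum was 137 ± 24.3 in mutants, highest at 169, and 194 ± 15.2 in controls, lowest at 183, without overlap. FOXO genes held 30.1% ± 3.24 of the summed TPM in mutants and 31.5% ± 1.35 in controls, FOXK genes 21.8% ± 2.52 and 19.6% ± 1.73, and FOXJ genes 10.2% ± 0.972 and 10.4% ± 0.572, none of which differed beyond its spread.

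Within subfamilies the shares shifted. Foxo1 held 18.7%, 16.6%, 13.0% and 13.0% of the summed TPM in mutants and 20.8%, 20.4% and 22.4% in controls. Foxo4 held 7.47%, 9.95%, 6.91% and 7.94% against 4.21%, 5.86% and 4.59%, and Foxo3 held 6.28%, 6.63%, 6.27% and 6.85% against 4.61%, 5.37% and 5.12%. Foxo1 was a smaller, and Foxo3 and Foxo4 a larger, part of the forkhead sum in every mutant than in any control, given as a description without a test. FOXP genes held 19.2%, 11.7%, 14.4% and 20.7% in mutants and 20.4%, 20.6% and 21.2% in controls, so that mutant replicate 4 reached into the control range. FOXM1 RNA made up 0.185% of the sum in mutant replicate 1, 4.18% to 6.39% in the other mutants and 1.22% to 2.08% in controls. Foxn1 made up 0.0432% to 0.179% in mutants and 1.77% to 2.54% in controls.

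**Figure D5:**
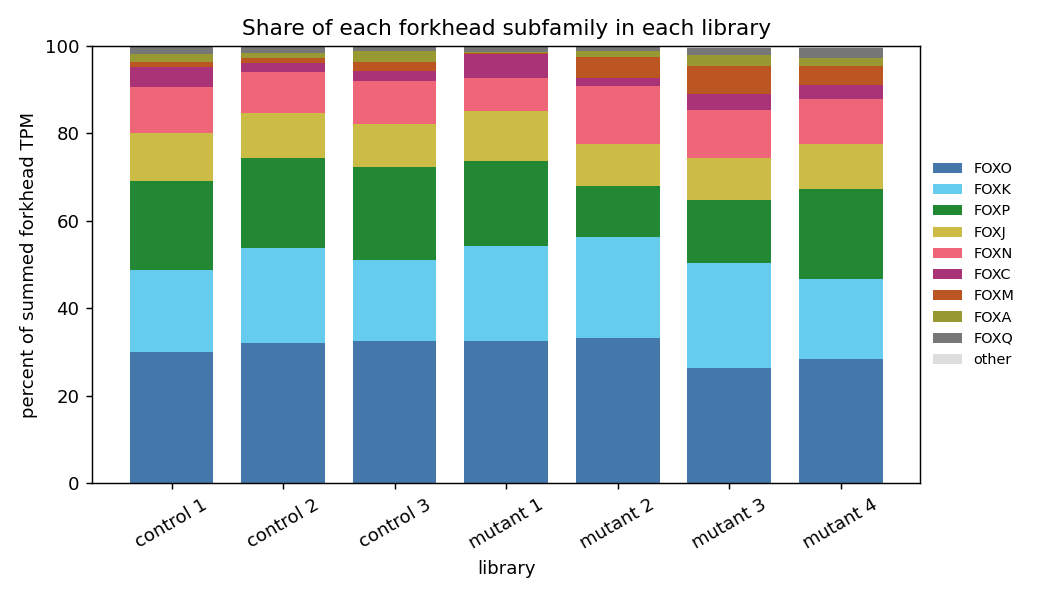
Percent of the summed forkhead TPM (vertical axis) held by each subfamily in each library (horizontal axis). The FOXO, FOXK and FOXP layers together fill most of every bar, the FOXP layer is thinnest in mutant replicates 2 and 3 (11.7% and 14.4%), and the FOXM layer is widest in mutant replicate 3 (6.39%) and almost absent in mutant replicate 1 (0.185%).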

How the data were processed

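RNA-seq libraries from 4 mutant mice and 3 control pools were compared, with groups taken from the genotype labels. The authors deposited whole-number counts of reads per gene for each library, made with STAR against mm10 after trimming with cutadapt and Trim Galore and checks with FastQC, per the submitters' processing notes, with versions and annotation not given in the sources used here. The authors also deposited 1 table of their DESeq2 comparison, with a mean signal, a log2 fold change and its error, a score (the test statistic), p-values and a weight for each gene. Only its log2 fold changes, errors and adjusted p-values are printed, each named as the authors'.

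Reverse-strand counts, 94.8% to 95.6% of stranded reads, were used. Symbols, coordinates and exon lengths come from GENCODE M21 (GRCm38), to which 53274 of 53379 gene IDs matched. The main test was edgeR's quasi-likelihood one (version 4.0.16, R 4.3.3), two-sided, with TMM factors and genotype alone in the model, on 14610 genes that filterByExpr kept. Benjamini-Hochberg adjusted p-values over them were called under 0.05. DESeq2 1.42.0 and limma 3.58.1 were alternatives. The test was checked on simulated counts. CPM are per 1000000 gene reads after TMM scaling, and TPM divide counts by the union of exon lengths. Promoter windows are RefSeq's. Each mutant library is 1 mouse and each control library a pool, whose mice may or may not be shared between pools. The p-values reflect only the variation among these 7 libraries.

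By rule every forkhead gene was to be named, but a few items are not reported here. Values in every library were given for genes past the threshold, the 12 with the highest level per length and those without overlap, and, of each supporting list, up to 4 called genes or the most abundant. Values of others were added after they were seen. The members, supporting lists and markers were chosen with earlier results of these data known. The leave-out, scaling, filter, strand and tool alternatives are in the closing section.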

Additional observations from a re-analysis of the deposited data

Results flagged for a closer look

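Among the 30 genes whose mutant values were checked for a single library far from the rest, 2 stood out, and chance alone flags about 1 in 20 such groups. Foxo1 was at 273 (272.886) CPM in mutant replicate 1, while the other 3 mutants lay between 146 and 159, so that the gap was 0.902 of the whole range. Foxk1 was at 238 (238.083) CPM in the same library, with the others between 98.3 and 114 and a gap of 0.886 of the range. In both genes mutant replicate 1 was the mutant nearest to the controls.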

How the results depend on the processing

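Foxn1 kept its direction under every alternative run and missed the threshold only with a replicate block. The replicate numbers do not pair the libraries: same-numbered mutants and controls deviated with correlations of -0.036, -0.367 and 0.145, and not every library correlated best with its own number. With the replicate block, 2 of all genes, 0 forkhead genes and 0 genes of each supporting list passed, and Foxn1 stood at -5.71 (adjusted p = 0.107).

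The count over all genes, 1687, became 2734 with total count scaling (532 lower and 2202 higher, against 903 and 784), 1057 without a filter, 3423 with DESeq2, 5219 with limma-voom, and 133 to 4403 when 1 library was left out, lowest without a control and highest without mutant replicate 1. Total count scaling moves the median of all genes from 0.06 to 0.41 and upper-quartile scaling to 0.20. Forkhead genes called numbered 2 with DESeq2's size factors, 4 with DESeq2, 7 with limma-voom and 1 to 6 with 1 library left out, the 6 without mutant replicate 1 being Foxj3, Foxk1, Foxn1, Foxo1 and Foxp1 lower and Foxm1 higher. Called FOXM1 targets numbered 1 under upper-quartile and 1 under total count scaling, 3 with DESeq2, 11 with limma-voom and 0 to 22 with 1 library left out. MuvB partners gave 0 without a filter, 2 with DESeq2, 3 with limma-voom and 0 to 4 with 1 library left out. FOXO targets gave 2 with total count scaling, 7 with DESeq2, 14 with limma-voom and 0 to 10 with 1 library left out. FOXO kinases and regulators gave 2 without a filter, 3 from unstranded counts, 9 with DESeq2, 14 with limma-voom and 0 to 11 with 1 library left out. FOXP and FOXK partners gave 1 without a filter, 5 with DESeq2, 6 with limma-voom and 0 to 6 with 1 library left out. Summed TMM-scaled CPM per kilobase, chosen after seeing the data, was 136.5 in mutants and 193.9 in controls.

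No called forkhead gene changed sign. Uncalled values that did were Foxo3 (0.0055 under upper-quartile, 0.22 under total count scaling), Foxn3 (-0.050 with limma-voom), and Foxq1 (0.077), Foxn2 (0.055) and Foxc1 (0.17) under total count scaling. With 1 library left out, Foxc1 ran from -0.55 to 0.41, turning without mutant replicate 2 or control replicate 1. Foxl2os was 0.025 under upper-quartile scaling, 0.24 under total count scaling, 0.21 with the replicate block and -1.18 to 0.35 with 1 library left out. The cause was not tested in any of these. Over all alternatives, the named genes of the supporting lists other than Foxl2os gave 122 values with the same direction and side of the threshold, 77 that no longer passed it and 5, all of Top2a, that newly passed it.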
